A study of Homo sapiens with 18 samples.

Results

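The 10 genes described here encode the core of the G1 cell cycle machinery: the D cyclins CCND1 and CCND3, the E cyclins CCNE1 and CCNE2, the kinases CDK2, CDK4 and CDK6, and the pocket proteins RB1, RBL1 (p107) and RBL2 (p130). They were taken by symbol from a table of 60504 genes. Each symbol matched 1 row, and all 10 passed the filter on low values (at least 1 TPM in at least 3 libraries), as did 14936 genes in all. Levels are in TPM, a per-length unit of transcript abundance whose sum is the same in every library.

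The cells were A375, a long-established line from a human melanoma with an activating mutation of BRAF, and RNA was read from its 3' end by the QuantSeq method. IMD-0354 is an inhibitor of IKKβ, a kinase of the NF-κB pathway. At 24 h the groups were untreated cells and cells given 0.32, 0.63 or 1.25 µM IMD-0354; at 48 h they were cells given 0.63 µM and untreated cells, with 3 libraries in each of the 6 groups. All groups are the same line, and the labels tell them apart by dose and time. In the sample descriptions, the 0.63 and 1.25 µM libraries at 24 h carry lower numbers than all other libraries, and what these numbers mean is not stated. Whether the untreated cells received a vehicle is not stated in the labels. It is likewise not stated whether replicate libraries represent separate cultures, so p-values measure the spread between these libraries, which may be technical. These are bulk samples: fewer cells of a kind and less RNA per cell cannot be told apart.

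In G1, D cyclins bind CDK4 and CDK6 and phosphorylate the pocket proteins, which otherwise hold E2F transcription factors in check. Freed E2F turns on genes for DNA synthesis as well as cyclin E, which binds CDK2 and adds further phosphates to the pocket proteins. CDK inhibitor proteins of the INK4 and CIP/KIP families oppose these kinases, and in melanoma the pathway is often altered at the INK4 locus, at CDK4 or at CCND1.

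Sequence just upstream of transcription starts is shown because pocket proteins act on genes through E2F sites there. RefSeq windows (GRCh38.p14, 250 bases before to 50 after a start) were at hand for 7 of the 10 genes, 11 windows in all. They were searched on both strands for TTTCCCGC, TTTGGCGC, TTTGCCGC and TTTCGCGC. CCND1, CCNE2 and CDK2 were not among them, so the search says nothing on these genes. RBL1 was the 1 gene of the 7 with a match, against 1090 of 27305 genes (3.99%) and 1164 of 35116 windows (3.31%) in the whole table. Of 18 E2F target genes of S phase entry with a window, 11 had a match (61.1%). The window of RBL1 held 2 matches that do not overlap, at bases -26 to -19 and -16 to -9 from the start. That of CCNE1 held none of these motifs, with no window of CCNE2 to set beside it. Windows of E2F1 and of the E2F target TYMS (thymidylate synthase) are given beside them. Both genes were called lower at 1.25 µM and with 0.63 µM at 48 h, and not at the other doses at 24 h. For these genes the window with the most matches was taken, so their matches are no fair contrast to the window of CCNE1. Capitals mark the matches, in either orientation; a match is a description of the letters and not a shown binding site.
RBL1 (chr20:37095948-37096247, minus strand): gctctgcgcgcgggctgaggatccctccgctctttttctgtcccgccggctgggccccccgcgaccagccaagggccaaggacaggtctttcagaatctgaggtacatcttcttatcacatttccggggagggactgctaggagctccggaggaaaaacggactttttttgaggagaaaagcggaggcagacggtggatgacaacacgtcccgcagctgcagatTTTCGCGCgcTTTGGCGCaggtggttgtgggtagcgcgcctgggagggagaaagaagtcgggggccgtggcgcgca
CCNE1 (chr19:29811741-29812040, plus strand): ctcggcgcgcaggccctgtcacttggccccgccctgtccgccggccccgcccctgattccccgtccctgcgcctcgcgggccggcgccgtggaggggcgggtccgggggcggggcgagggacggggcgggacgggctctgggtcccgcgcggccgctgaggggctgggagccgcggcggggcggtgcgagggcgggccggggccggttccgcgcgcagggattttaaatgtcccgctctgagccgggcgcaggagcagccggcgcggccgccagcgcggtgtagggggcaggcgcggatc
E2F1 (chr20:33686336-33686635, minus strand): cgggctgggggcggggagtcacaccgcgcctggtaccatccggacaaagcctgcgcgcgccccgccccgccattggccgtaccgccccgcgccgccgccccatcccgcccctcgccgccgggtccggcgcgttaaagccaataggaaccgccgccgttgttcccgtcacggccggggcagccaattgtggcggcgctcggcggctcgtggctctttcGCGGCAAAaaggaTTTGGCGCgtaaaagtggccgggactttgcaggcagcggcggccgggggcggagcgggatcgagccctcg
TYMS (chr18:657403-657702, plus strand): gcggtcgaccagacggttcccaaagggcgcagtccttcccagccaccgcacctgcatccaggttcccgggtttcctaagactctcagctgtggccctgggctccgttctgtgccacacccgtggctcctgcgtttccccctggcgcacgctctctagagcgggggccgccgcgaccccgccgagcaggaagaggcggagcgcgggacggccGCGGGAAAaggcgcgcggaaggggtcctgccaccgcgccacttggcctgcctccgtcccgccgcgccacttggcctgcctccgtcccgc

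The 10 genes covered a wide range of levels. Over the 18 libraries CDK4 averaged 122 TPM, CCND1 85.9 TPM and CDK2 57.0 TPM, above 94.2%, 91.8% and 88.4% of the tested genes. CDK6 averaged 26.2 TPM and RBL1 18.1 TPM. CCNE2, CCND3, RB1, CCNE1 and RBL2 lay between 5.28 and 7.29 TPM, near the middle of the tested genes. The third D cyclin, CCND2, was under the filter, with 0.22 TPM at most. In every library the TPM of CCND1 was above that of CCND3 and the TPM of CDK4 above that of CDK6. CDK6 made up 11.6 to 39.1% of the summed CDK4 and CDK6 TPM. TPM divides by transcript length, which 3' end reads do not scale with, so such rankings of different genes are only rough.

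**Figure D1:**
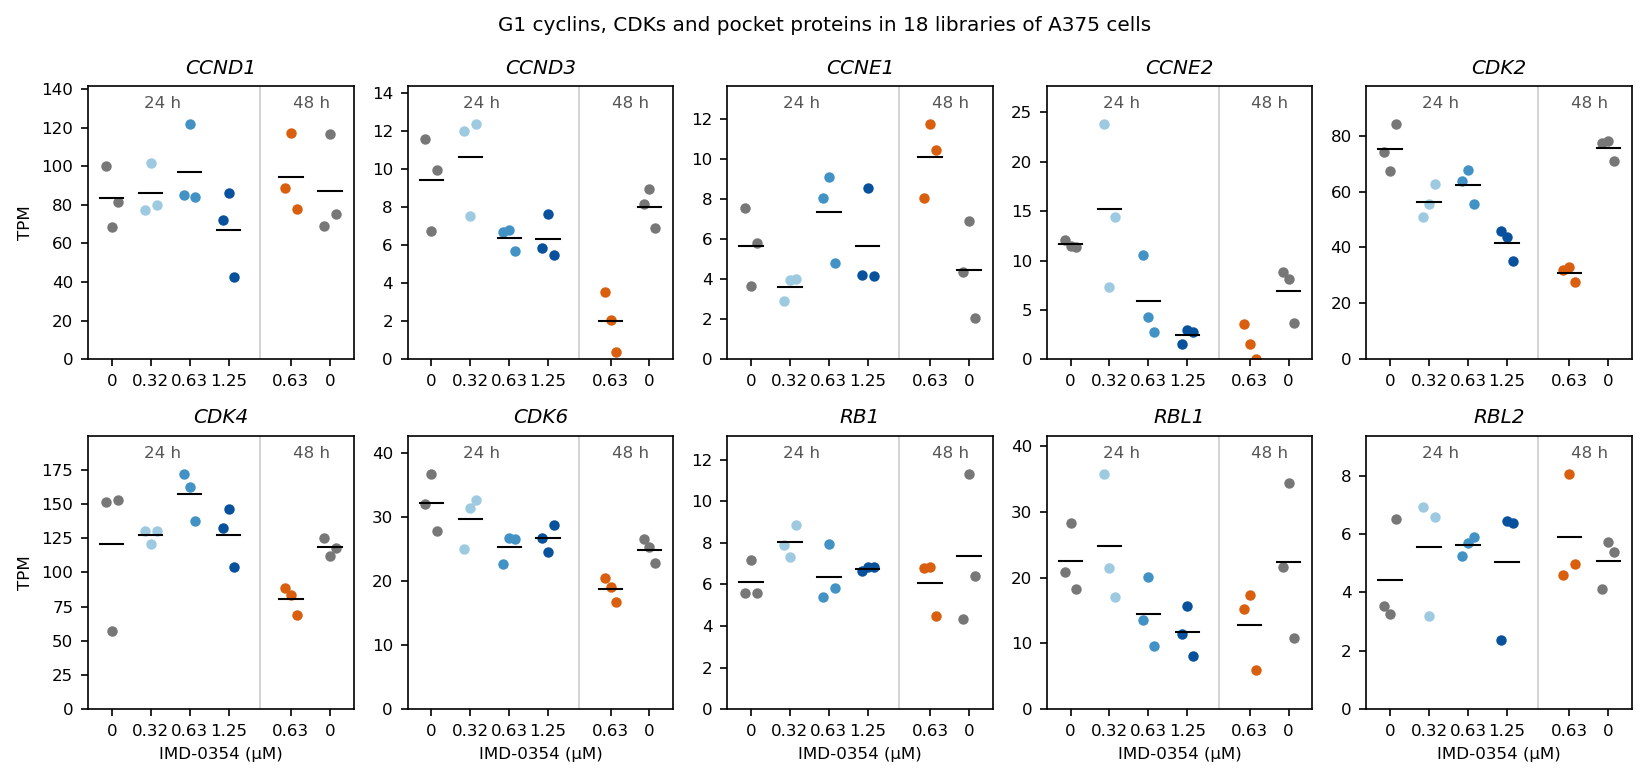
Levels of the 10 genes in every library, in TPM on linear axes from 0; points are libraries, grey for untreated cells, blue for the 24 h doses and orange for 0.63 µM at 48 h, and bars are group means (none for CCNE2 in 0.63 µM cells at 48 h, where 1 library is listed at 0). CDK2 is low at 1.25 µM and at 48 h, where its 3 treated libraries lie between 27.5 and 33.1 TPM against 70.9 to 78.2 TPM in untreated cells.

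CDK2, the kinase partner of the E cyclins, was the 1 gene of the 10 called lower both at 1.25 µM and at 48 h. At 24 h it stood at 74.3, 67.5 and 84.3 TPM in untreated cells, at 50.8, 55.6 and 62.7 TPM with 0.32 µM, at 63.9, 67.8 and 55.5 TPM with 0.63 µM, and at 45.8, 43.8 and 35.0 TPM with 1.25 µM. At 48 h it was 32.1, 33.1 and 27.5 TPM with 0.63 µM, against 77.2, 78.2 and 70.9 TPM in untreated cells. All 3 libraries at 1.25 µM lay below every other 24 h library, and all 3 treated libraries at 48 h lay below every other library of the series.

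Of the 10 genes, 2 were called at 1.25 µM, CDK2 and CCNE2, both lower, where a call is a Benjamini-Hochberg adjusted p under 0.05 from limma on log2(TPM + 1), two-sided and adjusted over all 14936 genes; 11.3% of all genes were called there and 6.36% were called lower. CDK2 fell to 41.5 ± 5.72 TPM with 1.25 µM, against 75.3 ± 8.47 TPM in untreated cells (SD, n = 3 each), a log2 change of -0.85 (SE 0.155, limma adjusted p = 0.00246). The call was made without each of the 6 libraries in turn but not when the fit held the compared groups alone (limma adjusted p = 0.0758). At 0.32 µM none of the 10 was called, as against 0.0268% of all genes. CDK2 was there already below the untreated libraries without overlap, with a log2 change of -0.41 (limma adjusted p = 0.771); 4.59% of all genes lay lower without overlap in that comparison. At 0.63 µM and 24 h again none of the 10 was called, with 2.18% of all genes called, and CDK2 overlapped the untreated range (log2 change -0.27, limma adjusted p = 0.400). The 24 h comparisons share the same 3 untreated libraries.

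At 48 h, 0.63 µM gave 2 calls among the 10, CDK2 and CCND3, both lower, while 7.63% of all genes were called and 5.68% were called lower. CDK2 averaged 30.9 ± 2.99 TPM with 0.63 µM and 75.5 ± 3.95 TPM in untreated cells (SD, n = 3 each), a log2 change of -1.26 (95% interval -1.59 to -0.93, limma adjusted p = 0.000115). The median gene shifted by -0.15 at 48 h; with median-of-ratios scaling, which removes that shift, CDK2 changed by -1.06. CDK2 lay near 75 TPM in untreated cells of both times (75.5 TPM at 48 h and 75.3 TPM at 24 h), and none of the 10 genes was called between them (0.0134% of all genes called). With the same dose of 0.63 µM the log2 change of CDK2 was -1.26 at 48 h and -0.27 at 24 h. The test of that difference gave -0.998 (SE 0.220) with a limma adjusted p of 0.0969 and did not pass, nor did any of the 10 genes (0.0335% of all genes called).

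The E cyclins, which lend CDK2 its activity at the G1 to S boundary, differed: CCNE2 fell at 1.25 µM, and CCNE1 had a positive change at 48 h that missed the threshold. CCNE2 at 24 h was 12.1, 11.5 and 11.3 TPM in untreated cells, 23.9, 7.28 and 14.4 TPM with 0.32 µM, 10.6, 4.30 and 2.75 TPM with 0.63 µM, and 1.59, 2.95 and 2.79 TPM with 1.25 µM. The untreated libraries were tight, those at 0.32 µM fell on both sides of them, and all libraries at 0.63 and 1.25 µM lay below them. At 1.25 µM CCNE2 fell to 2.44 ± 0.743 TPM, against 11.6 ± 0.421 TPM in untreated cells (SD, n = 3 each), a log2 change of -1.90 (SE 0.527, limma adjusted p = 0.0282). The call rests on every library: leaving out any 1 of the 6 gave limma adjusted p values of 0.0531 to 0.0903, with changes of -2.01 to -1.71. It was also lost with a pseudocount of 0.1 TPM (limma adjusted p = 0.140) and with no filter on low values (limma adjusted p = 0.0575).

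At 48 h CCNE2 was listed at 3.57, 1.52 and 0 TPM with 0.63 µM, against 8.83, 8.13 and 3.69 TPM in untreated cells. The groups did not overlap, though the highest treated library came close to the lowest untreated one. The log2 change of -1.73 missed the threshold (limma adjusted p = 0.0564), and passed at a filter of 5 TPM (limma adjusted p = 0.0419) and without treated replicate 1 (limma adjusted p = 0.0232). In all, CCNE2 passed there in 3 of 16 alternatives, and limma adjusted p reached 0.266 in the others. At 0.63 µM and 24 h the log2 change was -1.04 (limma adjusted p = 0.320), with CCNE2 and CDK6 the 2 genes of the 10 that lay below untreated cells without overlap; 9.26% of all genes did so.

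CCNE1 did not follow CCNE2. With 0.63 µM at 48 h CCNE1 was 8.04, 11.8 and 10.4 TPM, against 4.35, 6.91 and 2.07 TPM in untreated cells. Every treated library was above every untreated one, as for 9.23% of all genes. The log2 change was 1.12 (95% interval 0.36 to 1.88), and it missed the threshold as deposited (limma adjusted p = 0.0722). With either scaling that removes the shift of the median gene it passed (limma adjusted p = 0.0325 with median-of-ratios scaling and with quantile normalization), and it passed without untreated replicate 2 (limma adjusted p = 0.0426). These were the 3 of 16 alternatives in which CCNE1 passed, and limma adjusted p reached 0.264 in the others. Leaving out single libraries gave changes of 0.75 to 1.44. At 24 h CCNE1 was 7.54, 3.64 and 5.82 TPM in untreated cells, 2.91, 4.0 and 3.96 TPM with 0.32 µM, 8.08, 9.12 and 4.82 TPM with 0.63 µM, and 4.20, 8.56 and 4.16 TPM with 1.25 µM. These ranges overlapped the untreated one at each dose. Between 0.63 and 0.32 µM CCNE1 stood higher without overlap (log2 change 0.82, limma adjusted p = 0.324), and so did CDK4 (0.30, limma adjusted p = 0.674). Of all genes 11.0% did so. CCND3 stood lower without overlap (-0.63, limma adjusted p = 0.447), as did 9.1% of all genes. None of the 10 genes was called there (0.556% of all genes).

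The balance between the E cyclins was therefore read as the CCNE1 share of their summed TPM. At 24 h it was 38.4, 24.1 and 34.0% in untreated cells, 10.9, 35.2 and 21.7% with 0.32 µM, 43.2, 68.0 and 63.7% with 0.63 µM, and 72.5, 74.4 and 59.9% with 1.25 µM. At 48 h it was 69.3, 88.6 and 100% with 0.63 µM, against 33, 45.9 and 35.9% in untreated cells. CCNE2 gave most of the E cyclin TPM in all 9 libraries of untreated or 0.32 µM cells, and CCNE1 in 8 of the 9 libraries at the higher doses. This split of the libraries was described with the values in view and was not tested. TPM compares different genes only roughly, so which E cyclin gave more is rough too. The 100% rests on a library in which CCNE2 is listed at 0.

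**Figure D2:**
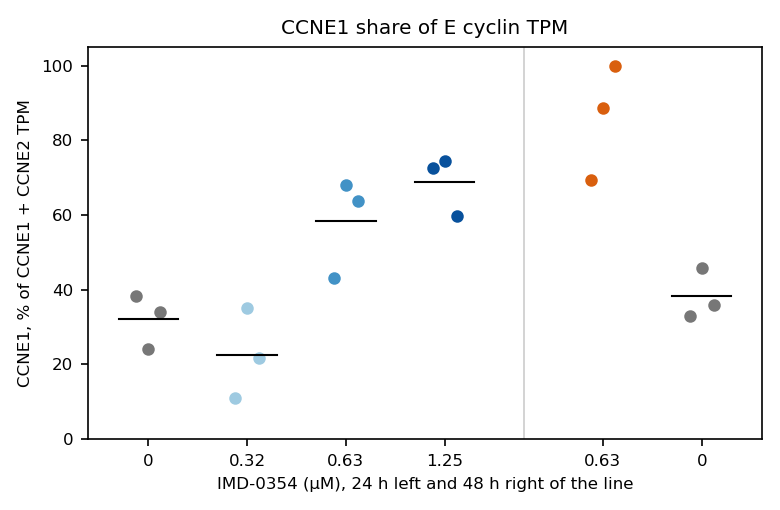
CCNE1 as a percentage of summed CCNE1 and CCNE2 TPM in each library (points), by dose, with 24 h left and 48 h right of the vertical line; bars are group means (none at 0.63 µM and 48 h, where 1 library has CCNE2 listed at 0). Untreated libraries lie between 24.1 and 45.9%, those at 1.25 µM between 59.9 and 74.4%.

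Among the D cyclins, CCND3 fell at 48 h and CCND1 was not called in any comparison. CCND3 was 3.53, 2.05 and 0.38 TPM with 0.63 µM at 48 h, against 8.14, 8.93 and 6.92 TPM in untreated cells. The 3 treated libraries lay below all other libraries of the series, and the lowest was nearly empty of this transcript. The means were 1.99 ± 1.58 TPM with 0.63 µM and 8.0 ± 1.01 TPM in untreated cells (SD, n = 3 each), a log2 change of -1.75 (SE 0.346, limma adjusted p = 0.00544). The call was made under all alternatives tried in that comparison, and the size depends on the pseudocount (-0.92 at 5 TPM and -2.37 at 0.1 TPM).

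At 24 h CCND3 was 11.6, 6.75 and 9.92 TPM in untreated cells, 12, 7.51 and 12.4 TPM with 0.32 µM, 6.70, 6.77 and 5.70 TPM with 0.63 µM, and 5.84, 7.61 and 5.47 TPM with 1.25 µM. The higher doses sat at the lower edge of the untreated range, which untreated replicate 2 extends downwards. Their log2 changes of -0.47 at 0.63 µM (limma adjusted p = 0.518) and -0.49 at 1.25 µM (limma adjusted p = 0.402) were not called. The effect of 0.63 µM at 48 h minus that at 24 h was -1.28 (SE 0.489, limma adjusted p = 0.308).

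CCND1, the D cyclin with the highest TPM, was 72.0, 86.3 and 42.8 TPM with 1.25 µM at 24 h, against 100.2, 68.3 and 81.6 TPM in untreated cells. At 48 h CCND1 was 88.9, 117 and 77.7 TPM with 0.63 µM, against 69.2, 117 and 75.3 TPM in untreated cells. Both pairs of groups overlapped widely, and with 0.32 and 0.63 µM at 24 h CCND1 ran from 77.1 to 101 TPM and from 83.9 to 122 TPM. The log2 changes were -0.35 at 1.25 µM (95% interval -0.92 to 0.22) and 0.14 at 48 h (95% interval -0.43 to 0.70), so a change of the size seen for CCND3 at 48 h lies outside both intervals.

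The D cyclin kinases CDK4 and CDK6 were not called in any comparison, but CDK4 passed at 48 h when the fit held the compared groups alone (limma adjusted p = 0.0418). CDK4 was 88.87, 83.35 and 68.71 TPM with 0.63 µM at 48 h, against 124.98, 111.98 and 118.18 TPM in untreated cells, and CDK6 was 20.5, 19.1 and 16.8 TPM against 26.5, 25.3 and 22.8 TPM. Both genes were lower in treated cells without overlap, as were 21.3% of all genes. The log2 changes were -0.56 for CDK4 (limma adjusted p = 0.256) and -0.39 for CDK6 (limma adjusted p = 0.184), both beyond the median gene's -0.15. In all, 6 of the 10 genes did not overlap between the groups at 48 h: CCND3, CCNE2, CDK2, CDK4 and CDK6 lower and CCNE1 higher.

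CDK4 at 24 h was 152, 57.2 and 153 TPM in untreated cells, 130.2, 120.5 and 131 TPM with 0.32 µM, 172, 162 and 138 TPM with 0.63 µM, and 132, 146 and 104 TPM with 1.25 µM. Untreated replicate 2 stood far below all other 24 h libraries. The log2 change of 0.19 at 1.25 µM turned to -0.27 without that library. At 0.63 µM the change was 0.51 at 24 h (limma adjusted p = 0.359) and -0.56 at 48 h; the test of their difference gave -1.07 (SE 0.389, limma adjusted p = 0.285). CDK6 at 24 h was 32.1, 36.8 and 27.9 TPM in untreated cells and ran from 24.96 to 32.6 TPM with 0.32 µM, from 22.7 to 26.6 TPM with 0.63 µM, and from 24.6 to 28.7 TPM with 1.25 µM (log2 change -0.26, limma adjusted p = 0.357). CDK6 was lower in untreated cells at 48 h than in untreated cells at 24 h without overlap (log2 change -0.36, limma adjusted p = 0.628), as was CCNE2 (-0.75, limma adjusted p = 0.759); 7.65% of all genes were.

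**Figure D3:**
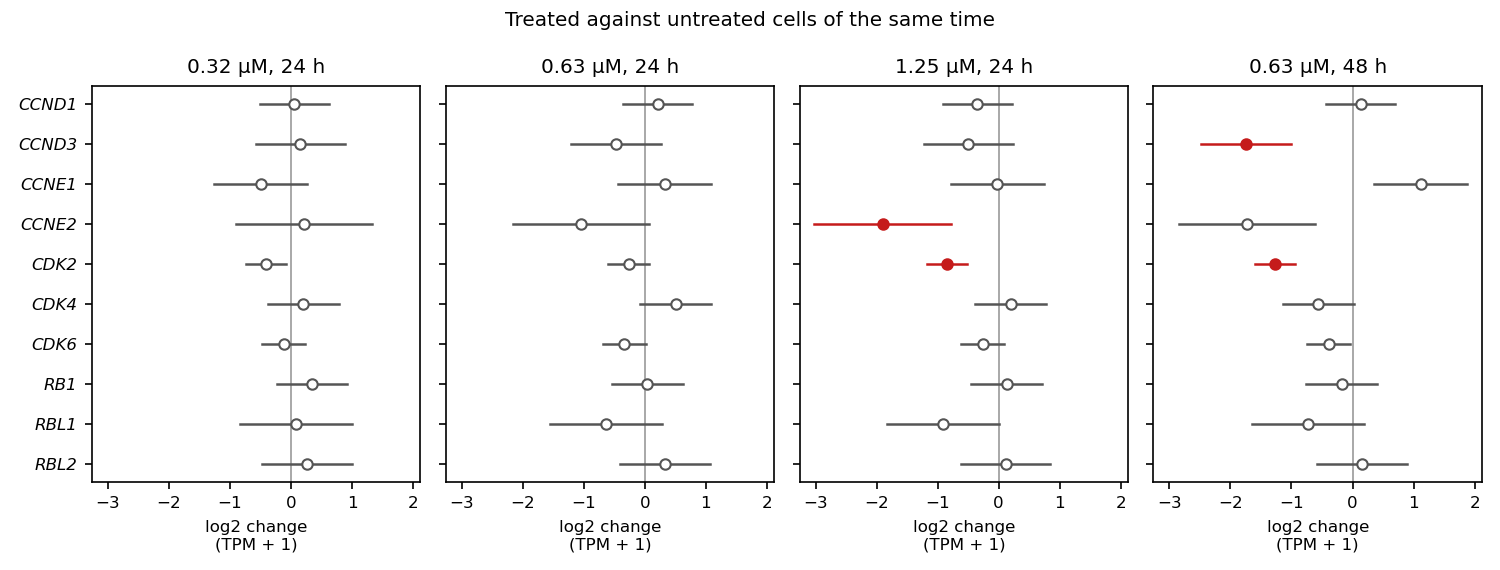
log2 change of TPM + 1 for each of the 10 genes (rows) against untreated cells of the same time, in 4 panels by dose and time, with 95% intervals from the limma fit; red filled points have an adjusted p under 0.05. The 4 red points are CCNE2 and CDK2 at 1.25 µM and CCND3 and CDK2 at 48 h, all to the left of 0.

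Of the pocket proteins, RBL1 had the largest changes and none was called. RBL1, whose own window carries E2F letters, was 11.5, 15.7 and 8.01 TPM with 1.25 µM at 24 h, against 20.8, 28.3 and 18.3 TPM in untreated cells. At 48 h it was 15.2, 17.4 and 5.94 TPM with 0.63 µM, against 21.6, 34.5 and 10.9 TPM in untreated cells. RBL1 was lower without overlap at 1.25 µM, as were 13.7% of all genes, while at 48 h the groups overlapped. The log2 changes were -0.91 (SE 0.433, limma adjusted p = 0.199) and -0.73 (SE 0.433, limma adjusted p = 0.361). With the lower doses at 24 h RBL1 ran from 17.0 to 35.9 TPM (0.32 µM) and from 9.64 to 20.1 TPM (0.63 µM). The libraries at 0.32 µM reached past both ends of the untreated range, and at 0.63 µM 2 of the 3 lay below it.

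RB1, the retinoblastoma protein gene, had log2 changes of 0.13 at 1.25 µM (95% interval -0.45 to 0.71) and -0.18 at 48 h (95% interval -0.76 to 0.40). Its levels ran from 4.32 to 11.3 TPM over all 18 libraries, and both ends belong to untreated cells at 48 h. RBL2, the pocket protein of resting cells, had log2 changes of 0.12 (95% interval -0.62 to 0.85) and 0.16 (95% interval -0.58 to 0.89), with levels of 2.36 to 8.08 TPM. With 0.32 µM at 24 h RB1 was 7.90, 7.31 and 8.87 TPM, against 5.59, 7.19 and 5.57 TPM in untreated cells, higher without overlap as were 4.08% of all genes.

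Calls were also counted among the neighbours of these genes in the pathway, to be read against 6.36% of all genes called lower and 4.94% higher at 1.25 µM and 5.68% lower and 1.95% higher at 48 h. Of 20 E2F target genes of S phase entry, 13 fell at 1.25 µM (median log2 change -1.23, against -0.01 over all genes) and 17 fell with 0.63 µM at 48 h (median -1.38, against -0.15 over all genes). None was called at 0.32 µM or at 0.63 µM and 24 h. At 0.63 µM and 24 h 17 of the 20 had negative changes (median -0.54, against 0.0041 over all genes). All 20 had negative changes at 1.25 µM and with 0.63 µM at 48 h. The largest falls at 48 h were of TK1 (thymidine kinase, -2.73), RRM2 (the ribonucleotide reductase subunit of S phase, -2.47), TYMS (-2.30) and PCNA (the sliding clamp of DNA polymerase, -2.29). At 1.25 µM they were of MCM10 (-2.10), RRM2 (-2.05), TYMS (-1.96) and MCM4 (a part of the replicative helicase, -1.71). The counts were 6 at 1.25 µM without untreated 24 h replicates 2 and 3, 8 there in the fit of the compared groups alone, 10 at 48 h without either treated replicate 3 or untreated replicate 1, and 11 at 48 h without untreated replicate 2.

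The levels of TYMS are given by library. At 24 h TYMS was 49.0, 55.7 and 62.8 TPM in untreated cells, 35.9, 61.0 and 64.3 TPM with 0.32 µM, 45.1, 46.5 and 27.6 TPM with 0.63 µM, and 14.6, 14.2 and 11.9 TPM with 1.25 µM. At 48 h TYMS was 11.4, 8.57 and 7.13 TPM with 0.63 µM, against 47.8, 41.9 and 54.3 TPM in untreated cells. At 0.63 µM and 24 h its log2 change was -0.51, while other targets spread from 0.46 (MCM2) to -1.40 (MCM10), none of them called. The libraries with the lowest CDK2, at 1.25 µM and at 48 h, were also those with the lowest TYMS. Between 1.25 and 0.63 µM at 24 h, none of the 10 genes was called (1.51% of all genes were), CDK2 coming closest at -0.58 (limma adjusted p = 0.0749), while 4 of the 20 targets fell. They were TYMS (-1.45), UHRF1 (-1.12), CCNA2 (cyclin A, -1.07) and RRM1 (-0.86). Without single libraries of that pair of groups, TYMS was called each time, and UHRF1, CCNA2 and RRM1 in 2 of 6 cases each. All 4 calls were lost in the fit of the compared groups alone (limma adjusted p of 0.0643 for TYMS and 0.112 to 0.165 for the others).

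Among 10 E2F and DP factors, 2 fell and 1 rose, the same genes in both comparisons. E2F1, an activator E2F, changed by -1.77 at 1.25 µM and -1.56 at 48 h, and TFDP1, the common partner of E2Fs, by -0.87 and -1.04. E2F7, a repressor E2F that works without a DP partner, rose by 1.39 and 1.44. The TFDP1 call at 1.25 µM was lost without either 1.25 µM replicate 2 or 3 or untreated replicate 1 or 3 (limma adjusted p up to 0.103), with quantile normalization (0.0508) and in the fit of the compared groups alone (0.121). At 48 h neither E2F1 nor TFDP1 was called without untreated replicate 1, E2F1 not without treated replicate 3 (limma adjusted p = 0.0627) and TFDP1 not without untreated replicate 2 (limma adjusted p = 0.0672). E2F7 was 33.9, 43.4 and 44.9 TPM with 1.25 µM, against 17.0, 11.9 and 15.9 TPM in untreated cells, with no overlap, and its call was lost only where untreated replicates 2 and 3 were both left out (limma adjusted p = 0.130).

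The MuvB core joins p107 or p130 and an E2F-DP pair in the DREAM repressor, or binds MYBL2 in their place as an activator. Of 6 genes for MuvB subunits and MYBL2, MYBL2 and RBBP4 fell in both comparisons. MYBL2, itself an E2F target, was 7.52, 11.1 and 3.91 TPM with 1.25 µM, against 45.8, 24.9 and 31.2 TPM in untreated cells, and its log2 changes were -2.09 at 1.25 µM and -2.46 at 48 h. RBBP4, a histone-binding subunit found in several chromatin complexes, changed by -1.37 and -1.40. The LIN subunits were not called, though 1 gene of the 6 was called higher at 1.25 µM without untreated 24 h replicate 3 and with a pseudocount of 5 TPM.

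**Figure D4:**
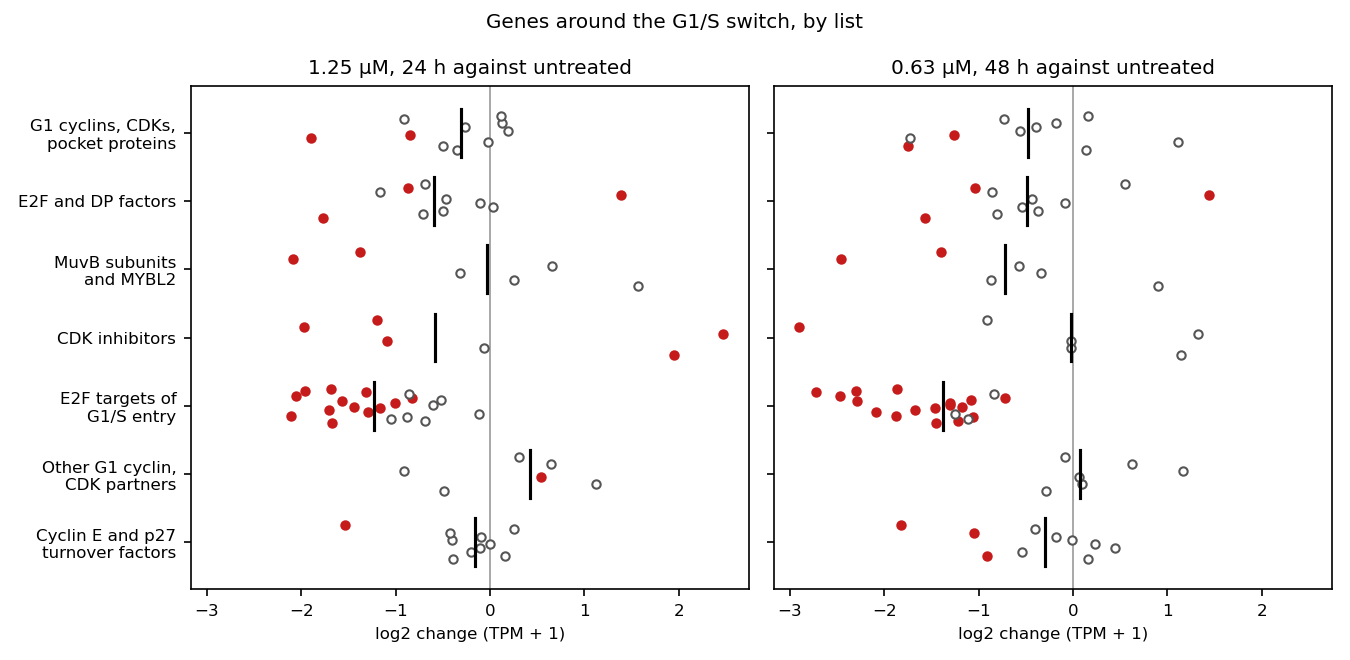
log2 change of TPM + 1 of each tested gene (points) by list, for 1.25 µM at 24 h (left) and 0.63 µM at 48 h (right) against untreated cells; red filled points have an adjusted p under 0.05 and black bars are list medians. E2F targets lie wholly left of 0 with medians of -1.23 and -1.38, while CDK inhibitors spread to both sides at 1.25 µM.

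CDK inhibitors went both ways. At 1.25 µM, 2 of 6 tested rose and 3 fell; CDKN2B was under the filter. The 3 that fell became 1 without 1.25 µM replicate 3, without untreated replicates 2 and 3 together, and in the fit of the compared groups alone. CDKN1A (p21, an inhibitor of cyclin-CDK2 complexes) was 41.5, 43.8 and 103 TPM with 1.25 µM, against 15.3, 6.45 and 27.3 TPM in untreated cells (log2 change 1.95, limma adjusted p = 0.00698). CDKN2A, the INK4 locus gene for p16 and ARF, was 30.9, 35.1 and 24.3 TPM against 10.9, 1.21 and 5.44 TPM (log2 change 2.47, limma adjusted p = 0.00732). In both genes untreated replicate 2 was the lowest library and the groups did not overlap. Neither rise passed when the fit held the compared groups alone (limma adjusted p = 0.0913 and 0.0606), and CDKN2A was not called without untreated replicates 2 and 3 (1.37, limma adjusted p = 0.254).

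CDKN2C (p18, an INK4 inhibitor of CDK4 and CDK6) fell at each of the higher doses and times. It was 14.1, 16.2 and 21.2 TPM in untreated cells at 24 h, 12.7, 8.95 and 10.0 TPM with 0.32 µM, 5.48, 4.66 and 5.51 TPM with 0.63 µM, and 4.14, 3.44 and 3.24 TPM with 1.25 µM. At 48 h CDKN2C was 0.81, 0.76 and 1.61 TPM with 0.63 µM, against 14.2, 13.0 and 15.3 TPM in untreated cells. No treated library of any dose reached the lowest untreated one. The log2 changes were -1.53 at 0.63 µM and 24 h, where CDKN1C (-1.61) was the other inhibitor called, -1.97 at 1.25 µM, and -2.90 at 48 h (limma adjusted p = 2.19e-06). The CDKN1C call was lost without either 0.63 µM replicate 3 or untreated replicate 1, and the fit of the compared groups alone called neither inhibitor at 0.63 µM and 24 h (limma adjusted p = 0.109 for CDKN2C and 0.155 for CDKN1C). At 1.25 µM CDKN1C (-1.09) and CDKN2D (-1.19) also fell, CDKN2D not without 1.25 µM replicate 3 (limma adjusted p = 0.0600) or in the fit of the compared groups alone (limma adjusted p = 0.0712). At 48 h CDKN2C was the 1 inhibitor called, with CDKN2A at 1.33 (limma adjusted p = 0.159).

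Of 10 factors for the turnover of cyclin E, D cyclins and p27, 1 fell at 1.25 µM, near the share of all genes that did (6.36%), and 3 fell at 48 h (5.68% of all genes). SKP2, the F-box protein that recruits p27, changed by -1.54 at 1.25 µM and -1.83 at 48 h, with 38.2, 29 and 11.9 TPM in cells given 0.63 µM for 48 h against 82.4, 87.4 and 91.5 TPM in untreated cells. RBX1, the RING subunit of cullin ligases, changed by -0.42 at 1.25 µM (limma adjusted p = 0.219). At 48 h RBX1 changed by -1.05 and CKS1B, a cofactor of SKP2 that also binds CDKs, by -0.92. Of 6 other cyclin and CDK partners tested, CDC37, a co-chaperone of CDK4, rose at 1.25 µM (0.54, limma adjusted p = 0.0249) and none was called at 48 h. The CDC37 call was lost without either 1.25 µM replicate 1 or 2 or untreated replicate 3, with no mean-variance trend and in the fit of the compared groups alone. Larger changes that were not called were those of CCNH, the cyclin of the CDK-activating kinase, at 1.25 µM (1.12, limma adjusted p = 0.104) and of CDK3. CDK3 changed by -0.91 at 1.25 µM (limma adjusted p = 0.357), with a 95% interval of -0.08 to 2.40 at 48 h (limma adjusted p = 0.274). It averaged only 0.577 TPM, and at 24 h it was above 0 in untreated replicate 2 alone (5.68 TPM). At 48 h CDK3 was 2.67, 2.04 and 0 TPM with 0.63 µM, against 0 in all untreated libraries. CDK7, the kinase partner of CCNH, changed by 0.62 at 48 h (limma adjusted p = 0.211).

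As a description of which transcripts ran alongside, the genes with the highest Pearson correlation to each of the 10 over the 18 libraries (mean of at least 5 TPM) were listed, 2 for each. Those of CDK2 were UNG (uracil-DNA glycosylase, r = 0.95) and HDGF (r = 0.95); of CCND3, WDR82 (r = 0.96) and H2AX (r = 0.94); and of CDK4, CFL1 (r = 0.94) and TBCB (r = 0.93). CCNE2 ran with MRTO4 (r = 0.93) and NOP56 (r = 0.91), both of ribosome biogenesis. RB1, RBL2, CCND1 and CCNE1 had no such close companion, their highest being MED17 (r = 0.69), CATSPER1 (r = 0.74), GLG1 (r = 0.79) and FTH1P10 (r = 0.79). CDK6 (HNRNPU, r = 0.90) and RBL1 (CDK12, r = 0.89) lay between. The libraries share groups and depth is unknown, so these values carry no test.

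The labelled cell type was checked by its markers. Of 7 melanocyte lineage genes 4 passed the filter. SOX10 and MITF averaged 19.1 and 11.3 TPM, MLANA and S100B only 0.61 and 0.43 TPM, and MLANA was at 0 in all untreated 24 h libraries. PMEL and DCT averaged 0.085 and 0.103 TPM, and TYR was at 0 in all libraries, so the melanocyte sum rests mostly on SOX10 and MITF. None of 6 markers of keratinocytes, other epithelia, leukocytes and endothelium passed, with summed levels of 1.6 TPM at most and PTPRC and CD3E at 0 throughout. The melanocyte sum was 16.0 to 19.7 TPM with 0.63 µM at 48 h and 31.5 to 35.4 TPM in untreated cells, and 36.1 to 40.6 TPM with 1.25 µM against 21.8 to 54.8 TPM in untreated cells at 24 h. MITF, the lineage regulator, fell by 1.76 on the log2 scale at 48 h and by 0.96 at 1.25 µM, the second value with a limma adjusted p of 0.0498 that passed without 1 of the 6 libraries and not without the others. The other 3 tested lineage genes were not called and changed by 0.33 (S100B), 0.66 (SOX10) and 1.07 (MLANA) at 1.25 µM and by -0.33, -0.28 and -0.14 at 48 h. The part of these levels in the results above was not tested. Libraries correlated with their own group at a mean r of 0.907 (untreated 24 h replicate 2) to 0.953.

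Several of the 10 genes overlap a gene on the opposite strand that passed the filter, and no source used here states whether reads were counted by strand. These are LTO1 at CCND1, INTS8 and NDUFAF6 at CCNE2, TSPAN31 and MARCH9 at CDK4, AC002454.1 at CDK6, LPAR6 and PCNPP5 at RB1, and AKTIP at RBL2. By GENCODE 29 (GRCh38) CCND1 spans chr11:69641087-69654474, CDK4 chr12:57747727-57756013, CDK6 chr7:92604921-92836594, RB1 chr13:48303726-48599436 and RBL2 chr16:53433977-53491649. CDK2 (chr12:55966769-55972784, plus strand) overlaps the melanocyte gene PMEL, which averaged 0.085 TPM. CCND3 (chr6:41934933-42050357), CCNE1 (chr19:29811898-29824308) and RBL1 (chr20:36996349-37095995) overlap no gene on the other strand that passed the filter.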

How the data were processed

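The deposited table holds TPM per gene for 18 libraries, 3 in each of 6 groups named by the labels. The submitters' processing notes list, without roles, cutadapt 1.18, STAR 2.7, RSEM 1.3.1 and DESeq2; the genome build is not given in the sources used here, nor is the annotation. TPM holds no read counts, so depth and the precision it gives are unknown and no count test was made. TPM divides by transcript length, which 3' end reads do not scale with, so levels of different genes compare only roughly.

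Ensembl identifiers were given symbols from a reference table (56558 of 60504 matched, 41209 with a symbol). The 10 genes and the gene lists were chosen with earlier results of these data known; 1 gene of the E2F target list is not reported here. The 14936 genes that reached 1 TPM in 3 or more libraries were kept. A mean per group was fitted to log2(TPM + 1) of all 18 libraries with limma 3.58.1 in R 4.3.3, with 12 residual degrees of freedom and a mean-variance trend. Tests were two-sided, called at a Benjamini-Hochberg adjusted p under 0.05. The procedure was also run on simulated data with independent normal noise. Changes were added only to genes well above 0, so that run says nothing on low values or on related libraries. List genes named are the 4 called with the largest change, or the 2 largest where fewer than 2 were called; in comparisons outside 1.25 µM at 24 h and 0.63 µM at 48 h, and for lineage markers, called genes only. TYMS, E2F1, E2F7, MYBL2, CDKN1A, CDKN2A, CDKN2C and SKP2 values by library, CDKN1C at 1.25 µM, CDC37, MCM2, MCM10 at 0.63 µM, the other lineage genes and the windows shown, were picked after their values were seen. The split of libraries by the CCNE1 share was also described with its values in view. Alternatives were median-of-ratios scaling, quantile normalization, other pseudocounts (0.1 and 5 TPM), other filters (none, or 5 TPM), no trend, a robust prior, a replicate block, the compared groups alone and leaving out each library; leaving out 2 libraries at a time was chosen after seeing the data.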

Additional observations from a re-analysis of the deposited data

Results flagged for a closer look

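None of the 10 genes passed the test of whether 0.63 µM acted differently at 48 h and at 24 h, but CKS1B of the pathway lists did. The difference of effects for CKS1B, the cofactor of SKP2, was -1.25 on the log2 scale (limma adjusted p = 0.0361). It was 284, 261 and 208 TPM with 0.63 µM at 48 h, against 459, 434 and 525 TPM in untreated cells, and at 24 h 656, 629 and 518 TPM with 0.63 µM, against 469, 426 and 533 TPM in untreated cells. Leaving out 1 of the 12 libraries gave limma adjusted p values of 0.0231 to 0.120, and CKS1B passed in 4 of these 12 cases. It did not pass without a mean-variance trend (0.135), in the fit of the compared groups alone (0.140), after quantile normalization (0.0819) or after median-of-ratios scaling (0.0886).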

How the results depend on the processing

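CDK2 at 48 h and CCND3 at 48 h were called under every alternative run, CDK2 at 1.25 µM under all but the fit of the compared groups alone. The number of the 10 genes called at 1.25 µM, 2 as reported, was 1 with a pseudocount of 0.1 TPM, with no filter, in the fit of the compared groups alone, in both settings that left out 2 libraries and without each library in turn (lowest and highest 1). Between 1.25 and 0.63 µM it was 1 in place of 0, CDK2, without untreated 24 h replicate 2 and 0.63 µM 24 h replicate 3. Changes near 0 turned sign, and the cause was not tested: CCNE1 at 1.25 µM ranged from -0.32 to 0.18 and RBL2 from -0.0781 to 0.495 as single libraries were left out, CDK4 at 1.25 µM from -0.27 to 0.43 (-0.26 and -0.27 in the settings without 2 libraries, where RBL2 was -0.0376 in the second), and at 48 h CCND1 from -0.0288 to 0.36, RB1 from -0.46 to 0.15 (0.0018 with median-of-ratios scaling) and RBL2 from -0.0599 to 0.29. For the 10 genes, values under alternatives were counted at 1.25 µM, at 48 h and for the changes picked for reporting in other comparisons. Of these, 583 kept direction and side of the threshold, 16 changed sign, 11 lost and 9 gained a call. Values of unchanged sign that were called in neither fit count as kept. Of values of named list genes 653 kept direction and side and 78 lost a call, and 26 of 37 called values passed without each library. Over all tested genes, deviations of same-numbered libraries from their group means were nearly uncorrelated (-0.093 to 0.115). These correlations pool all genes and cannot tell whether single genes vary with the replicate number. With the replicate number as a block, 3 of the 10 genes were called at 1.25 µM (RBL1 added), 3 at 48 h (CCNE2 added) and 0 in each other comparison; CKS1B's difference of effects was then not called (adjusted p = 0.0521). Over all genes, calls ranged from 324 to 1767 at 1.25 µM (1688 reported), 557 to 1461 at 48 h (1140), 6 to 490 at 0.63 µM and 24 h (326), 0 to 14 at 0.32 µM (4), 16 to 121 between 0.63 and 0.32 µM (83), 43 to 398 between 1.25 and 0.63 µM (226), 0 to 24 for the difference of effects (5) and 0 to 6 between untreated times (2). Depth is unknown, so the counting error of low values, such as those of CCNE1, CCNE2, CCND3 and RBL2 under 4 TPM, cannot be given.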
